A study of Homo sapiens with 10 samples.

Results

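MHC class I antigen presentation was followed through 9 genes of the 58050 in the table: HLA-B, HLA-C, HLA-E, B2M, TAP1, TAP2, TAPBP, NLRC5 and ERAP1. Their rows were picked by name, as those whose Ensembl identifier belongs to one of these symbols. That rule uses no measured value, but the genes were chosen with earlier results of these data known. RNA was sequenced from HCT116, an established human colorectal carcinoma line, in 5 cultures of HCT116-WT and 5 of HCT116-CD276KO. The knockout cells had received Cas9 protein with a guide RNA against CD276 (B7-H3, an immune checkpoint molecule of the B7 family) by electroporation and were grown from 1 sorted cell, which means that any difference seen is that of a single clone from the HCT116-WT cells. The protocol names a scrambled guide as control, but the labels of the 5 HCT116-WT libraries do not state whether those cells had received it. Neither group is labelled with a cytokine or drug treatment.

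MHC class I molecules show peptides from inside the cell to CD8+ T cells and are bound by receptors of NK cells. Each is a heavy chain, such as HLA-B, HLA-C or HLA-E, held by the light chain beta-2-microglobulin (B2M). Peptides cut by the proteasome are pumped into the endoplasmic reticulum by the TAP1 and TAP2 transporter, trimmed there by ERAP1 and loaded with the help of tapasin (TAPBP), while NLRC5 is the transactivator that acts at class I promoters. Colorectal tumour cells are known to lose parts of this machinery under immune selection.

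The letters of the promoters are shown first, because the genes of this pathway are known to be driven from related elements. RefSeq (GRCh38.p14) windows of 250 bases before and 50 after the transcription start were at hand for 7 of the 9 genes, not for HLA-E and NLRC5. The 250 bases before the start are given below, 5′ to 3′ on the gene's own strand, for both heavy chains, the light chain, the transporter subunit TAP1 and tapasin. Capitals mark matches, on either strand, to CCAAT (the box bound by NF-Y), TGACG (the core of a cyclic AMP response element), GAAANNGAAA (an interferon-stimulated response element) or the shorter AANNGAAA, which overlaps it.
HLA-B (chr6:31357180-31357429, minus strand): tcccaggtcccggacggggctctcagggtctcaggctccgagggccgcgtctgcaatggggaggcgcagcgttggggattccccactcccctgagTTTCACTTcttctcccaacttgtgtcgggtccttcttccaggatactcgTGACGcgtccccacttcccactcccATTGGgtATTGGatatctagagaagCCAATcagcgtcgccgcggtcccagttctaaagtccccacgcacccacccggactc
HLA-C (chr6:31272093-31272342, minus strand): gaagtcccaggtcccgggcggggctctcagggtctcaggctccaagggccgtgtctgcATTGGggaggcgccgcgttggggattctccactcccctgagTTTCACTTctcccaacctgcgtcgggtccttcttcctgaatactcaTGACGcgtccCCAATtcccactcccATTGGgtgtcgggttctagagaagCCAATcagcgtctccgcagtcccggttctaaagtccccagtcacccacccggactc
B2M (chr15:44711267-44711516, plus strand): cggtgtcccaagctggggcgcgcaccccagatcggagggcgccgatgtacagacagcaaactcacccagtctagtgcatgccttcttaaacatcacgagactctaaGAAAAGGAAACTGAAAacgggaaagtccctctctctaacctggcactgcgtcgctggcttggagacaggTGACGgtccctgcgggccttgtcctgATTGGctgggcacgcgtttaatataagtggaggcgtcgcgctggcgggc
TAP1 (chr6:32853705-32853954, minus strand): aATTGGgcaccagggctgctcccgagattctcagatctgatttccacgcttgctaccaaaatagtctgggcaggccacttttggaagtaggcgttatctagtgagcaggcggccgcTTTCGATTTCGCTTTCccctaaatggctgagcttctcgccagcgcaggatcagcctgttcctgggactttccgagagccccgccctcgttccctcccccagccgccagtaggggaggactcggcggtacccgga
TAPBP (chr6:33314079-33314328, minus strand): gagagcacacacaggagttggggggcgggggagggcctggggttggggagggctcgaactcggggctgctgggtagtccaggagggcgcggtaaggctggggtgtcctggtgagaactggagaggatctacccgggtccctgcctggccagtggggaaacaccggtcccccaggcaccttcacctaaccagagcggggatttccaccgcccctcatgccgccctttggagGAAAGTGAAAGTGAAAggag

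HLA-B and HLA-C had some matches in common. TTTCACTT, a match to AANNGAAA on the other strand, began 155 bases before the start in HLA-B and 151 in HLA-C, TGACG began 106 and 105 bases before it, and CCAAT began 56 bases before it in both. The other CCAAT matches, on the other strand except that at 95 in HLA-C, began 81 and 74 bases before the start in HLA-B and 192, 95 and 80 in HLA-C. B2M held a pair of overlapping GAAANNGAAA matches between 144 and 129 bases before the start, a TGACG beginning 75 bases before it and ATTGG, which is CCAAT on the other strand, beginning 49 bases before it. TAP1 and TAPBP held a pair of overlapping GAAANNGAAA matches each, TAP2 held 1 such match and ERAP1 held 1 just after its start. Of 35116 RefSeq promoter windows of the same length, 3.57% held GAAANNGAAA, 22.8% AANNGAAA, 24.6% TGACG and 34.6% CCAAT. A match describes the letters only, and no binding was measured.

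**Figure D1:**
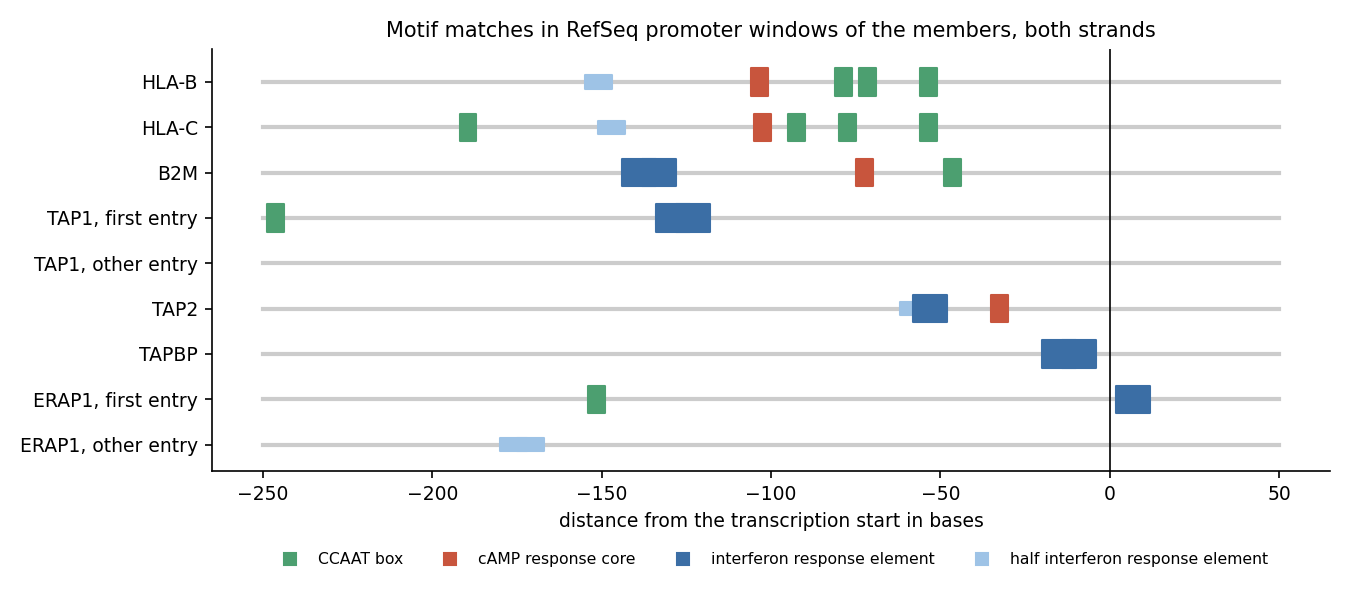
Matches to 4 motifs along the 9 RefSeq promoter windows of 7 class I pathway genes, by distance from the transcription start in bases (start at 0); green marks CCAAT, red TGACG, dark blue GAAANNGAAA and light blue the shorter AANNGAAA, on either strand. HLA-B and HLA-C each show 1 light blue and 1 red match at nearly the same distances and share a green match nearest the start, while TAP1 (first entry), TAP2, TAPBP, B2M and ERAP1 (first entry) carry dark blue ones.

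The class I genes lay on 4 chromosomes. HLA-E (chr6:30489509-30494194), HLA-C (chr6:31268749-31272130), HLA-B (chr6:31353872-31367067), TAP2 (chr6:32821833-32838739), TAP1 (chr6:32845209-32853816) and TAPBP (chr6:33299694-33314284) are in the MHC region of chromosome 6, by GENCODE 44 on hg38. B2M is at chr15:44711358-44718851, NLRC5 at chr16:56989485-57083531 and ERAP1 at chr5:96760810-96808100. The libraries were single reads of 50 bases mapped to the reference genome, which carries 1 haplotype of the highly variable HLA genes, so reads from an allele of HCT116 that differs from it could be lost or be given to a related gene, and the line's own alleles were not read here. Across the canonical transcripts, 38 of 1487 possible 50-base windows of HLA-B (2.56%), 101 of 1493 of HLA-C (6.76%) and 154 of 2499 of HLA-E (6.16%) were identical to a stretch of another gene's transcript. HLA-B and HLA-C shared 30 of these windows, and the longest coding run that both have within 1 exon was 66 bases, in exon 3, at chr6:31356301-31356366 in HLA-B and chr6:31271207-31271272 in HLA-C (both minus strand), shown because reads from it cannot be told apart.
HLA-B and HLA-C, exon 3: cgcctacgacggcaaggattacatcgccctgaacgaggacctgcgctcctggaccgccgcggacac
The share was 35.3% for TAP2 (1974 of 5594 windows, with 2 other genes), 7.09% for TAPBP and 1.18% for TAP1. B2M, NLRC5 and ERAP1 had 0 shared windows. By this measure the values of TAP2, TAPBP, the HLA genes and, least, TAP1 are less certain than those of B2M, NLRC5 and ERAP1.

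CD276 itself lay between 38.1 and 53.6 TPM (a transcript's share of all transcripts in the library, corrected for its length) in HCT116-WT and between 4.40 and 7.42 TPM in HCT116-CD276KO. Between 22109 and 22948 genes were above 0 TPM in a library. The 5 epithelial markers EPCAM, CDH1, KRT8, KRT18 and KRT19 were present in every library and were all lower in HCT116-CD276KO, their sum being 4173 to 4942 TPM in HCT116-WT and 3306 to 3773 TPM in HCT116-CD276KO. The 6 leukocyte markers summed to at most 0.24 TPM, the 4 endothelial markers to at most 0.65 TPM, and the 6 fibroblast markers to 4.54 to 8.99 TPM, nearly all of it COL1A1. The part of the lower epithelial markers in the class I results was not tested. HCT116-CD276KO replicates 2 and 3 stood apart from the other libraries. Their levels fell with transcript length more than those of any other library (Spearman's rho across genes of -0.52 and -0.49, against -0.09 to 0.43 in the rest), so those changes of the 9 genes and of their ratios that moved by over 1.5 times without both of them are given both ways. In bulk RNA, fewer cells that express a gene and less of its RNA per cell cannot be told apart.

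All 9 class I genes passed the filter on low values, an average of 1 TPM or more across the libraries, and were tested. In limma on log2(TPM + 1), with Benjamini-Hochberg adjustment over 13581 genes, 0 of the 9 passed an adjusted p of 0.05, where 4.87% of all genes tested did (0.781% higher and 4.09% lower in HCT116-CD276KO), and 0 of the 9 also changed at least 2-fold, against 0.486% of all genes. Unadjusted p-values under 0.05 were found for 6 of the 9, against a background of 21.9%. The groups did not overlap for 1 of the 9, B2M, which was higher in HCT116-CD276KO, against 7.61% of all genes (1.42% higher and 6.19% lower). On the log2 scale the fitted change was above 0 for 6 genes and below 0 for 3, with a median of 0.05 beside -0.09 over all genes tested. The 4 chains of the class I molecule itself (HLA-B, HLA-C, HLA-E and B2M) were all above 0, and TAP1, TAPBP and ERAP1 were below 0. The canonical transcripts of the 4 chains (943 to 2548 bases) were also shorter than those of these 3 (2685 to 4841 bases). TAP2 (5643 bases) and NLRC5 (6781 bases), longer still, were at 0.05 and 0.03. With the length and GC trend removed, TAP1 was at -0.12, TAPBP at -0.31 and ERAP1 at -0.17, and the 4 chains at 0.07 (HLA-C) to 0.25 (HLA-E). The part of length in this split was not tested. The directions of these 7 genes were the same under all 9 other settings and in each of the 10 fits without 1 library, but the calls were not. With median-of-ratios scaling 2 genes passed, B2M (adjusted p = 0.0389) and HLA-E (0.0248), where 583 of all 13581 genes did. With quantile normalization HLA-B (0.0478) and HLA-E (0.0356) passed, where 638 of 13581 genes did. With each library's trend with transcript length and GC content removed, B2M (0.0429) and HLA-E (0.00303) passed, where 1249 of 13472 genes did. Of the 9, 0 passed without HCT116-CD276KO replicates 2 and 3.

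**Figure D2:**
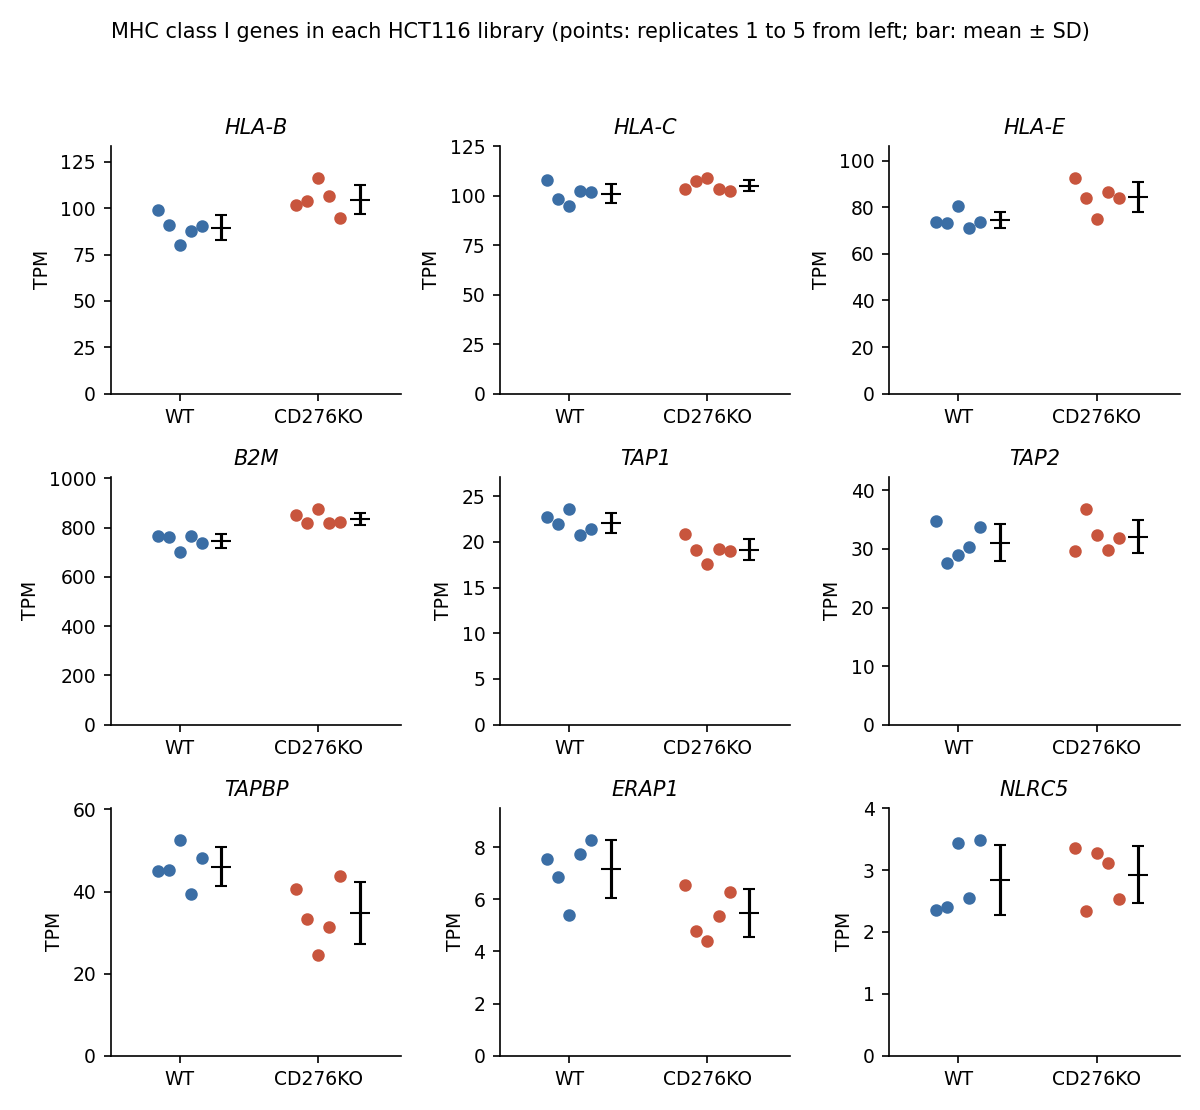
TPM of the 9 class I pathway genes in each library, HCT116-WT in blue and HCT116-CD276KO in red, points from left to right being replicates 1 to 5 and the bar the mean ± SD (n = 5 per group). B2M is the gene whose groups stand apart, from 699 to 766 TPM against 817 to 874 TPM; the points of the other 8 genes overlap between the groups.

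Ordered by mean level over all libraries, B2M (791 TPM) was followed by HLA-C (103 TPM), HLA-B (97.0 TPM), HLA-E (79.4 TPM), TAPBP (40.4 TPM), TAP2 (31.6 TPM), TAP1 (20.6 TPM), ERAP1 (6.32 TPM) and NLRC5 (2.88 TPM). The ranges over the 10 libraries overlapped for the neighbours HLA-C and HLA-B, HLA-B and HLA-E, and TAPBP and TAP2. They did not overlap for the other 5 neighbouring pairs. The light chain was thus listed above every heavy chain in each library, and the transactivator was the lowest of the 9.

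HLA-B encodes a classical heavy chain. In HCT116-WT replicates 1 to 5 it was at 98.8, 90.6, 80.1, 87.5 and 90.2 TPM, and in HCT116-CD276KO replicates 1 to 5 at 102, 104, 116, 106 and 94.5 TPM. HCT116-CD276KO replicate 5 lay below HCT116-WT replicate 1, so the groups overlapped by this pair, and replicate 3 was both the lowest of HCT116-WT and the highest of HCT116-CD276KO. The mean was 89.5 ± 6.73 TPM (SD, n = 5) against 104 ± 7.85 TPM (SD, n = 5), and the log2 fold change was 0.22 with a standard error of 0.07 (95% interval 0.06 to 0.38). The adjusted p from limma was 0.107. The two-sided exact permutation p on the same scale, not adjusted for the number of genes here or for any single gene below, was 0.0159. Without HCT116-CD276KO replicates 2 and 3 the log2 fold change was 0.17 (adjusted p = 0.323).

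HLA-C encodes the other classical heavy chain followed here, a main ligand of the killer cell immunoglobulin-like receptors. Its level was 108, 98.4, 94.6, 102 and 102 TPM in the HCT116-WT replicates and 103, 108, 109, 104 and 102 TPM in the HCT116-CD276KO replicates. Each HCT116-CD276KO value was above the 3 lowest HCT116-WT values, and the groups overlapped through the other 2. The means were 101 ± 5.00 and 105 ± 2.89 TPM (SD, n = 5 each), with a log2 fold change of 0.06 (95% interval -0.06 to 0.17, adjusted p = 0.539). The interval leaves room for a fold between 0.959 and 1.13. Without HCT116-CD276KO replicates 2 and 3 the log2 fold change was 0.03 (adjusted p = 0.882).

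HLA-E is a non-classical heavy chain that presents leader peptides of other class I chains to the NK cell receptor CD94/NKG2A. It was at 73.7, 73.3, 80.4, 71.3 and 73.7 TPM in HCT116-WT and at 92.4, 83.8, 74.9, 86.5 and 84.0 TPM in HCT116-CD276KO. The overlap came from replicate 3 of each group, the highest HCT116-WT value being above the lowest HCT116-CD276KO value. The means were 74.5 ± 3.45 and 84.3 ± 6.31 TPM (SD, n = 5 each). The log2 fold change was 0.18 with a standard error of 0.07 (95% interval 0.03 to 0.32, adjusted p = 0.147), and the exact permutation p was 0.0159. It was 0.27 with median-of-ratios scaling, and 0.23 (adjusted p = 0.0912) without HCT116-CD276KO replicates 2 and 3.

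B2M, the light chain of every class I molecule, was at 766, 764, 699, 765 and 736 TPM in HCT116-WT and at 849, 817, 874, 819 and 822 TPM in HCT116-CD276KO. Each HCT116-CD276KO library was above each HCT116-WT library. The means were 746 ± 28.8 and 836 ± 24.8 TPM (SD, n = 5 each), and the log2 fold change was 0.16 with a standard error of 0.05 (95% interval 0.06 to 0.27). As a fold this was 1.12, with an interval of 1.04 to 1.20. The unadjusted exact permutation p was 0.00794, the smallest that 5 against 5 allows, while the adjusted p from limma was 0.0688. Any gene whose groups do not overlap gets that permutation p, and 7.61% of all genes had such groups. That adjusted p ranged from 0.0389 to 0.170 over the other settings and the fits without 1 library, with a log2 fold change of 0.12 to 0.27.

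TAP1, a subunit of the peptide transporter, was at 22.7, 22.0, 23.6, 20.7 and 21.4 TPM in HCT116-WT and at 20.9, 19.1, 17.6, 19.2 and 19.1 TPM in HCT116-CD276KO. HCT116-CD276KO replicate 1 was the library above the lowest HCT116-WT value, and the other 4 were below the whole HCT116-WT range. The means were 22.1 ± 1.10 and 19.2 ± 1.18 TPM (SD, n = 5 each), with a log2 fold change of -0.20 (standard error 0.07, 95% interval -0.34 to -0.05, adjusted p = 0.117) and an exact permutation p of 0.0159. The change was -0.10 with median-of-ratios scaling and -0.08 with quantile normalization.

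TAP2 is the partner subunit in the transporter. It was at 34.8, 27.5, 29.0, 30.4 and 33.8 TPM in HCT116-WT and at 29.6, 36.8, 32.4, 29.8 and 32.0 TPM in HCT116-CD276KO, and the HCT116-WT values spread across most of the HCT116-CD276KO ones. The means were 31.1 ± 3.11 and 32.1 ± 2.89 TPM (SD, n = 5 each). The log2 fold change of 0.05 had a 95% interval of -0.14 to 0.23 (adjusted p = 0.766) and became -0.02 without HCT116-CD276KO replicates 2 and 3.

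TAPBP encodes tapasin, which bridges the transporter and the empty class I molecule. Its values were 44.9, 45.4, 52.5, 39.4 and 48.1 TPM in HCT116-WT and 40.6, 33.4, 24.6, 31.4 and 43.7 TPM in HCT116-CD276KO. Replicates 1 and 5 of HCT116-CD276KO lay in the HCT116-WT range and replicates 2, 3 and 4 below it. The spread within HCT116-CD276KO was the widest in proportion among the 9 genes in that group, with a coefficient of variation of 21.9%. The means were 46.0 ± 4.78 and 34.7 ± 7.60 TPM (SD, n = 5 each), and the log2 fold change was -0.42 with a standard error of 0.14 (95% interval -0.72 to -0.11), the lowest of the 9. The adjusted p was 0.115 and the exact permutation p 0.0317. Without HCT116-CD276KO replicates 2 and 3, the log2 fold change was -0.26 (adjusted p = 0.352).

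ERAP1, the aminopeptidase that trims peptides to the length class I molecules hold, was at 7.53, 6.85, 5.39, 7.72 and 8.26 TPM in HCT116-WT and at 6.56, 4.79, 4.41, 5.37 and 6.28 TPM in HCT116-CD276KO. The overlap rested on HCT116-WT replicate 3, the other 4 HCT116-WT libraries being above every HCT116-CD276KO library. The means were 7.15 ± 1.11 and 5.48 ± 0.927 TPM (SD, n = 5 each), with a log2 fold change of -0.33 (standard error 0.13, 95% interval -0.61 to -0.05, adjusted p = 0.156). The exact permutation p was 0.0397. The log2 fold change was -0.20 (adjusted p = 0.531) without HCT116-CD276KO replicates 2 and 3, and -0.17 (adjusted p = 0.197) with the trend with transcript length and GC content removed.

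NLRC5, the class I transactivator, was low in every library. It was at 2.35, 2.40, 3.44, 2.54 and 3.48 TPM in HCT116-WT and at 3.36, 2.34, 3.28, 3.11 and 2.53 TPM in HCT116-CD276KO, and the groups covered the same range. The means were 2.84 ± 0.569 and 2.92 ± 0.460 TPM (SD, n = 5 each), with a log2 fold change of 0.03 (95% interval -0.24 to 0.31, adjusted p = 0.883), or 0.06 without HCT116-CD276KO replicates 2 and 3. On the scale with 1 TPM added, the interval spans folds of 0.846 to 1.24, so it leaves room for a change within that span. This scale understates the change of so low a gene.

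**Figure D3:**
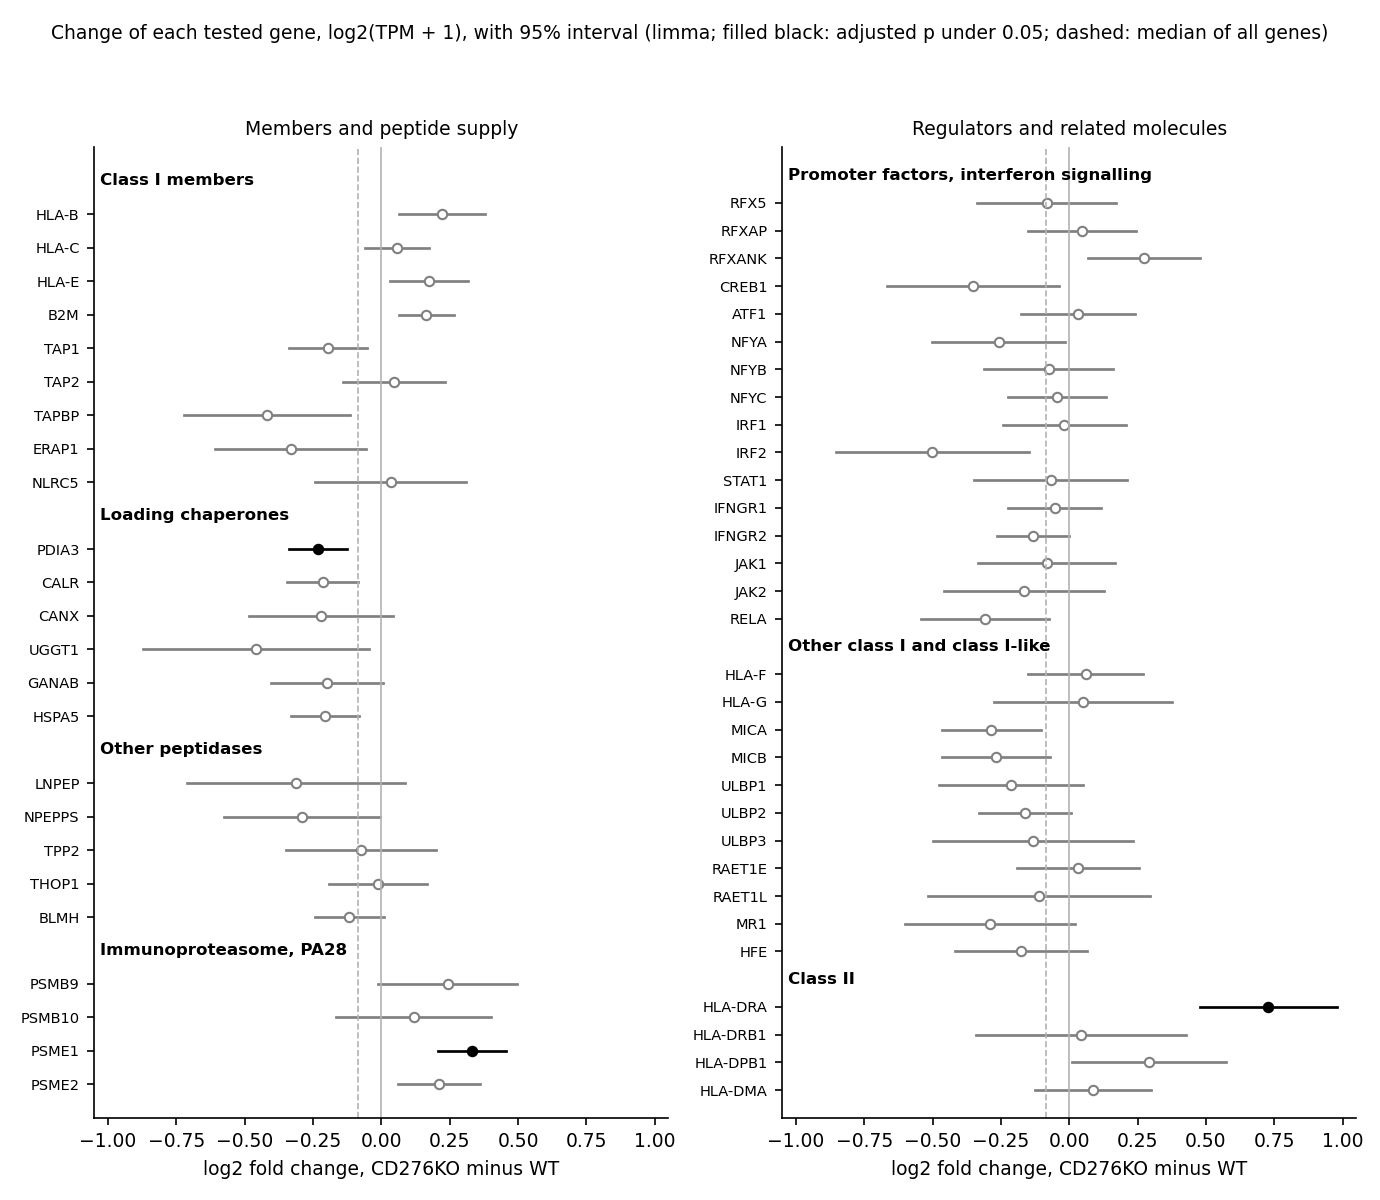
Log2 fold change (HCT116-CD276KO minus HCT116-WT, on log2(TPM + 1)) with its 95% interval from limma for the 9 class I pathway genes and the tested genes of 6 related lists; filled black points passed an adjusted p of 0.05, the solid line is 0 and the dashed line the median of all genes (-0.09). PDIA3, PSME1 and HLA-DRA are the filled points, and the chains HLA-B, HLA-C, HLA-E and B2M lie to the right of 0 while TAP1, TAPBP and ERAP1 lie to the left.

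Ratios between the genes within a library do not depend on how libraries are scaled to one another, and 4 were compared with two-sided exact permutation tests adjusted over the 4. The ratio of HLA-B to HLA-C was 0.914, 0.921, 0.847, 0.854 and 0.887 in HCT116-WT and 0.981, 0.966, 1.07, 1.03 and 0.926 in HCT116-CD276KO. The groups did not overlap, though the nearest values were close. The mean ratio was 0.885 ± 0.0339 against 0.993 ± 0.0550 (SD, n = 5 each, exact permutation p = 0.00794, adjusted p = 0.0317), a log2 difference of 0.17. This was the 1 ratio of the 4 to pass. Each of the 10 comparisons without 1 library gave an adjusted exact permutation p of 0.0635, where 4 against 5 allows no unadjusted p below 0.0159. The 30 windows that both genes share can move reads between them, and their part in this ratio was not tested.

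The ratio of B2M to the sum of HLA-B and HLA-C, the balance of light and classical heavy chain RNA, ranged from 3.70 to 4.04 in HCT116-WT and from 3.86 to 4.18 in HCT116-CD276KO. Its mean was 3.92 ± 0.148 against 4.00 ± 0.153 (SD, n = 5 each, exact permutation p = 0.437), and the groups overlapped widely. The log2 difference was 0.03, or 0.06 without HCT116-CD276KO replicates 2 and 3. TAP1 to TAP2 was 0.716 ± 0.0842 against 0.601 ± 0.0761 (SD, n = 5 each, exact permutation p = 0.0714, adjusted p = 0.0952). TAPBP to the sum of both transporter subunits was 0.867 ± 0.0955 against 0.678 ± 0.150 (SD, n = 5 each, exact permutation p = 0.0635, adjusted p = 0.0952). In both of these the mean was lower in HCT116-CD276KO, with overlapping groups, and neither difference passed the test. On the log2 scale the differences were -0.25 for TAP1 to TAP2 and -0.38 for TAPBP to both subunits. Without HCT116-CD276KO replicates 2 and 3 they were -0.14 and -0.18 (adjusted exact permutation p = 0.321 for each). With each library's length and GC trend removed they were -0.37 and -0.42 (adjusted exact permutation p = 0.0741 for each).

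**Figure D4:**
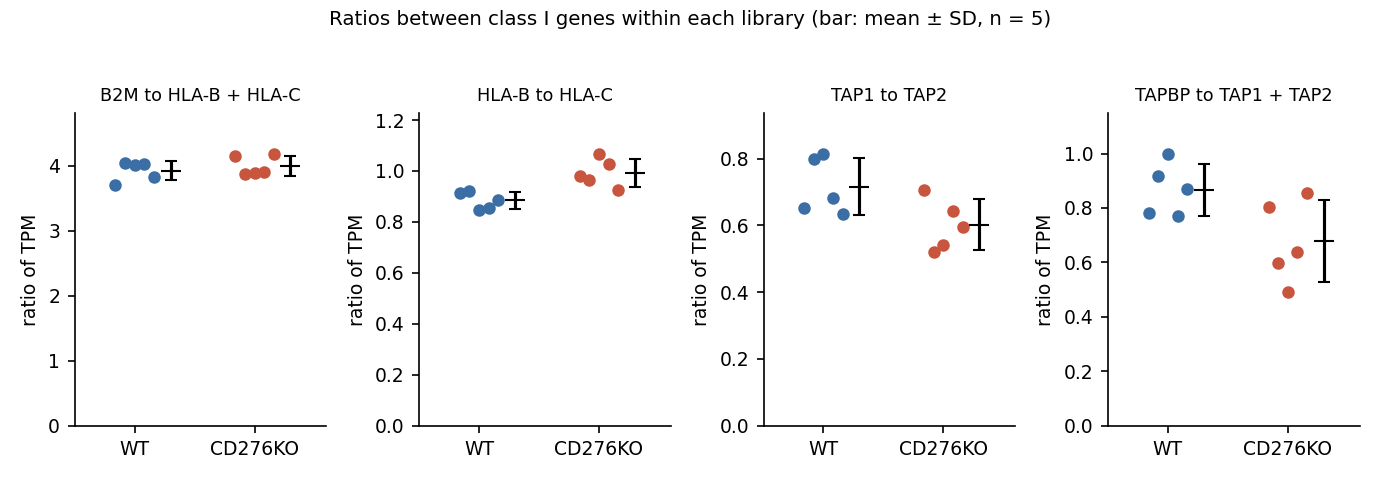
Ratios of TPM between class I genes within each library, HCT116-WT in blue and HCT116-CD276KO in red, with the mean ± SD (n = 5 per group). HLA-B to HLA-C runs from 0.847 to 0.921 in HCT116-WT and from 0.926 to 1.07 in HCT116-CD276KO without overlap; the other 3 ratios overlap.

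Around these 9 genes, 6 lists of 56 further genes of the pathway and its surroundings were counted, of which 46 were tested. Of the 46, 3 passed an adjusted p of 0.05 (limma), 2 higher and 1 lower in HCT116-CD276KO, where 4.87% of all genes did. At an unadjusted p under 0.05 (limma) there were 16 of the 46, where 21.9% of all genes were. The groups did not overlap for 4 of the 46, against 7.61% of all genes. The median log2 fold change was -0.10 beside -0.09 over all genes. Among the loading chaperones, 1 of 6 tested genes passed, and 4 of the 6 had an unadjusted p under 0.05. The groups did not overlap for 2 of the 6, PDIA3 and CALR. CALR was at 848 to 1041 TPM in HCT116-WT and 767 to 824 TPM in HCT116-CD276KO, but did not pass (adjusted p = 0.0649, limma). PDIA3 (ERp57), the oxidoreductase paired with tapasin in the loading complex, was at 493, 489.8, 512, 486 and 463 TPM in HCT116-WT and at 411, 405, 404, 422 and 440 TPM in HCT116-CD276KO. Every HCT116-CD276KO library was below every HCT116-WT library, and PDIA3 fell by 0.23 on the log2 scale (adjusted p = 0.0195). With median-of-ratios scaling it was -0.13 (adjusted p = 0.215), with the length and GC trend removed -0.10 (adjusted p = 0.388), and it also missed the threshold without HCT116-WT replicate 1 or 2, without HCT116-CD276KO replicate 4, and without HCT116-CD276KO replicates 2 and 3. All 6 chaperones tested were below 0, from -0.46 for UGGT1, the glycoprotein folding sensor, to -0.20 for GANAB, a glucosidase subunit, with a median of -0.22, but without HCT116-CD276KO replicates 2 and 3 UGGT1 was at -0.17 and GANAB at -0.07.

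Of the 4 tested genes of the immunoproteasome and of its activator PA28, 1 passed, and 2 had an unadjusted p under 0.05. The shares over all genes were 4.87% and 21.9%. PSME1, the alpha subunit of PA28, was at 157, 154, 153, 166 and 149.9 TPM in HCT116-WT and at 198, 196, 215, 193 and 182 TPM in HCT116-CD276KO. The groups were well apart, and PSME1 rose by 0.33 on the log2 scale (adjusted p = 0.00608), a fold of 1.26. The change passed under each of the 9 other settings and each fit without 1 library. The other 3 were not called: PSMB10, a catalytic subunit of the immunoproteasome, had the smallest value of the list, 0.12 (adjusted p = 0.598), and was at -0.05 without HCT116-CD276KO replicates 2 and 3. PSMB8, another catalytic subunit, was under 1 TPM on average and was not tested.

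The factors that act on class I promoters and the interferon signalling genes had 0 of 16 called, with a median log2 fold change of -0.08. At an unadjusted p under 0.05 there were 5 of the 16, where 21.9% of all genes were. RFXANK, a subunit of the RFX complex through which NLRC5 acts, had the highest value at 0.27 (adjusted p = 0.124, and 0.16 without HCT116-CD276KO replicates 2 and 3), and IRF2, an interferon regulatory factor, the lowest at -0.50 (adjusted p = 0.105, and -0.29 without HCT116-CD276KO replicates 2 and 3). Of the other peptidases that cut peptides, 0 of 5 were called (1 at an unadjusted p under 0.05), from -0.31 for LNPEP, a trimming enzyme of endosomes, to -0.01 for THOP1, a cytosolic oligopeptidase, whose sign turned with scaling. LNPEP was at -0.05 without HCT116-CD276KO replicates 2 and 3. ERAP2, the partner of ERAP1, was under 1 TPM on average. Of the other class I and class I-like molecules, 0 of 11 were called (2 at an unadjusted p under 0.05, MICA and MICB), from -0.29 for MR1, which presents vitamin B metabolites to MAIT cells, to 0.06 for HLA-F, a non-classical chain, and MR1 was at -0.07 without HCT116-CD276KO replicates 2 and 3. MICA and MICB, ligands of the NK cell receptor NKG2D, were at -0.29 and -0.27. MICA passed without HCT116-CD276KO replicate 4 (adjusted p = 0.0374, limma) and MICB without HCT116-WT replicate 3 (adjusted p = 0.0208, limma).

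Class II genes, which serve peptide presentation to CD4+ T cells, were low, 4 of the 8 being under 1 TPM on average, among them CIITA, the class II transactivator, at 0.01 TPM or less in each library. HLA-DMA, a subunit of the class II peptide exchange factor, was the highest of the list on average, between 5.36 and 7.71 TPM. Of the 4 tested, 1 passed, and 2 had an unadjusted p under 0.05, where 4.87% and 21.9% of all genes did. HLA-DRA, the class II alpha chain, was at 1.76, 1.68, 1.70, 2.00 and 2.57 TPM in HCT116-WT and at 4.58, 3.37, 3.45, 4.25 and 3.68 TPM in HCT116-CD276KO. Its groups did not overlap, and it rose by 0.73 on the log2(TPM + 1) scale (adjusted p = 0.00387), which understates the change of so low a gene. HLA-DRB1, its partner chain, was at 1.00 ± 0.353 and 1.08 ± 0.479 TPM (SD, n = 5 each), with a log2 fold change of 0.04 (adjusted p = 0.895).

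**Figure D5:**
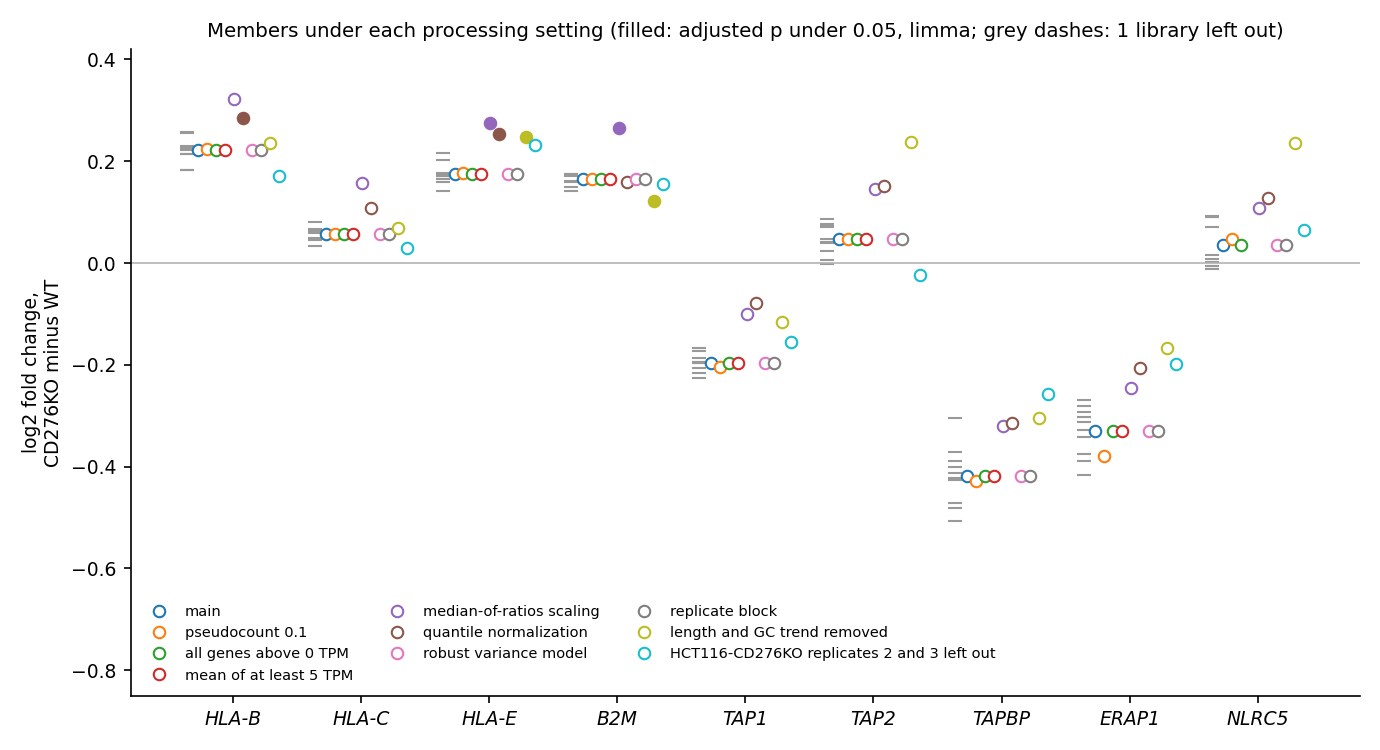
Log2 fold change of the 9 class I pathway genes under the reported processing (main) and 9 other settings, with filled circles where the adjusted p from limma is under 0.05 and grey dashes for the 10 fits without 1 library. HLA-B, HLA-C, HLA-E and B2M stay above 0 and TAP1, TAPBP and ERAP1 below 0 throughout, while TAP2 and NLRC5 cross it; filled circles appear for HLA-B, HLA-E and B2M.

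How alike the levels ran within a group was described for the classical chains and their light chain. The deviations of HLA-B, HLA-C and B2M from their group means, averaged on the log2 scale, were lowest in HCT116-WT replicate 3 (-0.11) and highest in HCT116-WT replicate 1 (0.09) and HCT116-CD276KO replicate 3 (0.09). Among 8302 other genes averaging 10 TPM or more, the most alike over the 10 libraries were TPRKB (Pearson's r = 0.957), a subunit of the KEOPS complex, NQO1 (r = 0.944), a quinone reductase, and PRDX1 (r = 0.932), a peroxiredoxin. These are the largest of 8302 values from 10 libraries that share length trend and scaling, and they are given as a description.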

How the data were processed

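RNA of 5 HCT116-WT and 5 HCT116-CD276KO cultures was sequenced as polyadenylated, strand-specific libraries. Per the labels and methods, the authors checked reads with FastQC 0.11.5, mapped them to GRCh38 with STAR 2.5.2b and quantified Ensembl 86 (GENCODE 25) genes with RSEM 1.3.0 and featureCounts 1.5.1. The authors deposited TPM with 2 decimals, and which program gave them is not named. The authors' own comparison used limma/voom on counts, which were not analysed here. TPM carry no counts, so a library's own depth cannot be read from them (the labels give only an average over libraries) and no counting interval is given. The 5 cultures per group set the precision, and the p-values measure the spread between cultures, those of HCT116-CD276KO being of 1 clone.

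Genes averaging 1 TPM or more were compared on log2(TPM + 1) in limma 3.58.1 (R 4.3.3) with a variance trend and Benjamini-Hochberg adjustment. The test was tried first on simulated data with planted changes larger than those of the 9 genes, so the trial says nothing of changes of their size. Exact permutation tests, ratios and figures used Python 3.11.15, numpy 2.4.6, pandas 2.3.3, scipy 1.17.1 and matplotlib 3.10.9. Named were all 9 class I genes, CD276, in each related list the called genes and the highest and lowest change, and the 3 genes most alike. The genes and lists were chosen with earlier results of these data known. PSMB8, ERAP2, CIITA, MICA, MICB, HLA-DMA, CALR, HSPA5 and COL1A1 were named after their values were seen. Positions and shared windows were read from GENCODE 44 (hg38, newer gene models than the authors' on an unchanged assembly), and promoters from RefSeq. Alternatives were a pseudocount of 0.1, filters of above 0 and at least 5 TPM, median-of-ratios scaling, quantile normalization, a robust variance model, a replicate block, removal of each library's length and GC trend (local regression, span 0.3) and leaving out each library. The joint omission of HCT116-CD276KO replicates 2 and 3 and the ratios without the trend were chosen after seeing the data, as were the counts of list genes under the other settings.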

Additional observations from a re-analysis of the deposited data

Results flagged for a closer look

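In 54 groups of 5 values, 1 library lay far from the other 4 on 2 occasions, where chance gives about 1 in 20. HLA-E in HCT116-WT replicate 3 was at 80.4 TPM while the other 4 lay between 71.3 and 73.7 TPM, so that the gap took 0.737 of the group's range, above the limit of 0.71. HLA-F, a non-classical class I chain, was at 6.36 TPM in HCT116-WT replicate 5 while the other 4 lay between 7.89 and 8.49 TPM, a gap of 0.718 of the range. Without HCT116-WT replicate 3, HLA-E did not pass the test.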

How the results depend on the processing

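The number of the 9 class I genes called was 0 in the reported fit, in each fit without 1 library and without HCT116-CD276KO replicates 2 and 3, but 2 with median-of-ratios scaling, with quantile normalization and with the length and GC trend removed. Over all genes 662 were called (106 higher, 556 lower), against 346 without HCT116-CD276KO replicates 2 and 3, 1249 with the trend removed (507 higher, 742 lower), 583 with median-of-ratios scaling (197 higher, 386 lower), 638 with quantile normalization (253 higher, 385 lower) and 340 to 886 without 1 library. Of the single omissions, those that moved the count by over 1.5 times were of HCT116-WT replicates 1 (343), 2 (370), 4 (422) and 5 (340) and HCT116-CD276KO replicates 3 (404) and 4 (381). Genes called that also changed at least 2-fold were 66, 112 with a pseudocount of 0.1 and 40 with a filter of at least 5 TPM. Same-numbered libraries did not deviate together (correlations of -0.18 to 0.12, and 1 of 5 HCT116-WT libraries was most like its own number), and the fit with a replicate block called 378 genes, 0 of the 9 among them, and lost PDIA3 (adjusted p = 0.0903). Of the related lists 3 genes were called, 2 to 6 without 1 library, with 6 without HCT116-WT replicate 3 (CALR, HSPA5 and MICB added), and MICA in place of PDIA3 without HCT116-CD276KO replicate 4. Without 1 library, signs turned for TAP2 (-0.0020 to 0.087, below 0 without HCT116-CD276KO replicate 2), NLRC5 (-0.012 to 0.093, below 0 without HCT116-WT replicate 1 or 2 or HCT116-CD276KO replicate 1), THOP1 (-0.063 to 0.045, above 0 without replicate 3 of either group), HLA-F (-0.0035 to 0.10, below 0 without HCT116-WT replicate 5) and HLA-DRB1 (-0.033 to 0.11, below 0 without HCT116-WT replicate 2 or HCT116-CD276KO replicate 1). Without HCT116-CD276KO replicates 2 and 3 they turned for TAP2 (-0.024) and PSMB10 (-0.052). THOP1 was at 0.088 with median-of-ratios scaling, 0.047 with quantile normalization and 0.13 with the trend removed, and the last setting put the log2 difference of the B2M to HLA-B and HLA-C ratio at -0.030. The log2 difference of the HLA-B to HLA-C ratio was 0.14 to 0.19 without 1 library, at an adjusted exact permutation p of 0.0635, and 0.14 without HCT116-CD276KO replicates 2 and 3 (adjusted exact permutation p = 0.143). As 4 against 5 allows no unadjusted p under 0.0159, and 3 against 5 none under 0.0357, the loss of this call in these smaller designs says nothing of its stability. NLRC5, HLA-DRA, HLA-DRB1 and LNPEP had no value under the filter of 5 TPM. HLA-DRB1 fell under the filter of 1 TPM without HCT116-WT replicate 5, without HCT116-CD276KO replicate 2 and without HCT116-CD276KO replicates 2 and 3. Its range without 1 library thus covers 8 fits. Causes were not tested.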
